A study of Triticum turgidum subsp. durum with 36 samples.

Results

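The 200 loci described here were those with the largest fall from heading date (HD) to 22 days after anthesis (DAA) in the flag leaf of tetraploid wheat, in libraries of every genotype. They were chosen by their own values: the highest of the 12 libraries of 22 DAA was below the lowest of the 12 HD libraries, and the mean at HD was at least 2 CPM (the count of a locus scaled to the total of its library). Of the 80168 loci with deposited counts, 722 (0.901%) met this rule. One of them, at rank 283, matched a gene in the study's list of transporters and was left out, and the 200 with the largest log2 ratio of mean HD to mean 22 DAA, with 0.5 CPM added to both, were taken. The other 521 are called here the other falling loci.

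Monocarpic senescence is the ordered breakdown of the leaves of an annual plant while its grain fills. The flag leaf supplies much of the sugar for the young grain through photosynthesis, and later exports the nitrogen, iron and zinc held in its own proteins, most of which sit in the chloroplast. Chlorophyll a-b binding proteins hold the pigments that capture light at the thylakoid membrane, and the small subunit of Rubisco is part of the enzyme that fixes CO2. Messages for both are known to decline in aging leaves. GPC1 and GPC2 encode NAC transcription factors, and GPC1 is known to promote senescence and nutrient export in wheat.

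Plants of 3 genotypes (WT, the mutant gpc-A1, and a double mutant, gpc-A1/gpc-B2) were sampled at 3 times, with 4 libraries in each of the 9 groups. Each library was made from the whole flag leaf of 1 plant grown in a greenhouse under long days. The gpc-A1 plants carried a premature stop codon in GPC-A1, gpc-A1/gpc-B2 plants carried another in GPC-B2 as well, and WT plants were siblings with neither mutation. The lines came from TILLING mutants backcrossed to Kronos, whose GPC-B1 copy is not functional, so all 9 groups lacked a working GPC-B1. GPC-A2 was not mutated, so that gpc-A1/gpc-B2 plants still held an intact GPC2 copy. The title of replicate 1 of gpc-A1 at HD disagreed with another field of its label, and the title was used. Without this library the rule kept 199 of the 200, and 0 of the 200 were called between genotypes at HD.

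Library totals ranged from 13754124 to 48981831 counts, with the largest, WT replicate 4 at 12 DAA, at 2.53 times the median. Replicate 4 of WT at HD stood apart. It was the lowest of the 12 HD libraries in 74 of the 200 loci, and their summed level there was 16165 CPM against 31104 to 34437 CPM in the other WT libraries at HD. In the same library the 31 described heat shock and chaperone loci summed to 16611 CPM, the highest of all 36 libraries, and the light harvesting and photosystem loci to 54205 CPM, the lowest at HD. Without this library, chosen after seeing the data, the rule kept 175 of the 200. The described loci of light harvesting and photosystems summed to between 54205 and 105901 CPM at HD, so that these defining messages of a green leaf were abundant in every HD library.

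At HD the mean level of the 200 loci ranged from 2.10 to 6919 CPM with a median of 12.3 CPM, and at 22 DAA from 0.0183 to 1415 CPM with a median of 1.81 CPM. The log2 fall ranged from 1.80 to 6.25 with a median of 2.34, and from 0.35 to 1.80 in the other falling loci. It was at least 4 in 17 of the 200, between 3 and 4 in 35, between 2 and 3 in 97 and under 2 in 51. These are the values that chose the loci, and they were not tested. In 30 loci the HD mean was 100 CPM or more, in 83 between 10 and 100 CPM, and in 87 between 2 and 10 CPM. No locus was without reads at 22 DAA, but 7 had fewer than 10 reads over its 12 libraries. A lower level in a whole leaf can come from fewer cells that express a locus or from less RNA in each cell, and these cannot be told apart.

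**Figure D1:**
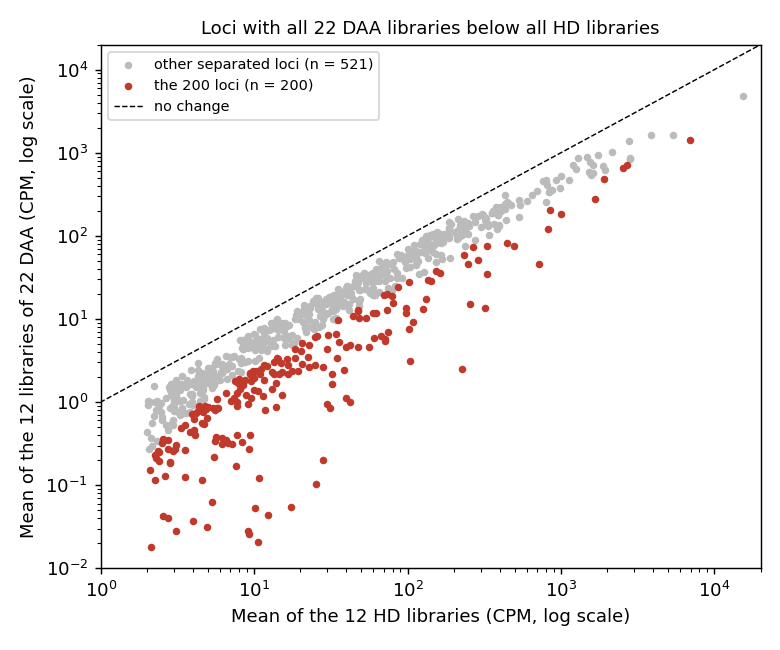
Mean level of 721 loci at 22 DAA against that at HD, in CPM on log scales, each over 12 libraries. The 200 loci with the largest fall (red) reach from 2.10 to 6919 CPM at HD, and the other 521 falling loci are grey. The loci were ranked with 0.5 CPM added to both means, so at low levels some grey points lie as far below the dashed line of no change as red ones.

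The gap between the times was wide in some loci and narrow in others. The ratio of the lowest HD library to the highest library of 22 DAA ranged up to 45.6, with a median of 1.66. It was over 2 in 71 loci and under 1.1 in 18. Within HD, the highest library was 1.62 to 32.6 times the lowest, with a median of 3.01, and in 17 loci this ratio was over 10. At the limit of 200, the last locus taken (5BL contig 10783729, positions 2860 to 9204) went from a mean of 4.4 to 0.904 CPM, a log2 fall of 1.80. The first locus left out (7AS contig 4208964, positions 3850 to 5112) went from 78.7 to 22.3 CPM, also a log2 fall of 1.80.

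The largest fall was that of 4AL contig 7175259 (positions 3481 to 6933), which has no description. At HD it stood at 246, 223, 445 and 235 CPM in WT, at 269.6, 289, 211 and 102 CPM in gpc-A1, and at 185, 196, 138 and 171 CPM in gpc-A1/gpc-B2. At 22 DAA it stood at 1.07, 0.626, 2.0 and 1.53 CPM in WT, at 1.41, 1.48, 4.06 and 6.41 CPM in gpc-A1, and at 3.36, 2.84, 2.59 and 2.33 CPM in gpc-A1/gpc-B2. The lowest HD library, gpc-A1 replicate 4, was thus far above the highest of 22 DAA, which was also gpc-A1 replicate 4. At 12 DAA its 12 libraries lay between 5.16 and 74.4 CPM, between the other times and without a break between genotypes.

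The next 2 loci by fall lie on different contigs of arm 5AS, contig 1551992 (positions 1417 to 1786) and contig 1535390 (positions 1090 to 8397), and the locus at rank 9 lies on 5BS contig 2295187 (positions 1765 to 2242). They were chosen for mention together after their values were seen. The first stood at 24.6, 27.3, 82.6 and 8.91 CPM in WT at HD, the second at 26.6, 31.8, 89.3 and 10.3 CPM, and the third at 11.6, 13.8, 39.6 and 3.76 CPM. In all 3, WT replicate 3 was the highest HD library, and the lowest was gpc-A1 replicate 4. At 22 DAA none of the 3 exceeded 0.651 CPM in any library. No sequence of these loci was compared here, so that a shared origin of the 3 was not tested.

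The other loci among the 10 largest falls had no description either. On 7AS contig 4124392 (positions 1 to 262) the mean went from 17.3 to 0.0540 CPM, and on 4BS contig 4905501 (positions 10262 to 13684) from 104 to 3.09 CPM. On 3B contig 10579321 (positions 366 to 2202) it went from 42.2 to 1.0 CPM, and on 2AL contig 6389817 (positions 6604 to 7348) from 39.6 to 1.11 CPM. On 6AL contig 5722309 (starting at position 15) it went from 31.3 to 0.846 CPM, and on 1BL contig 3800169 (positions 10560 to 12143) from 319 to 13.7 CPM. None of the 10 was at 0 reads over the libraries of 22 DAA.

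Descriptions were at hand for 763 of the 80168 loci, nearly all of high abundance, and 13 of the 200 had one, against 91 of the other 521 falling loci. Of these 13, 7 were chlorophyll a-b binding proteins. One of them was on 5BL contig 10801870 (positions 11726 to 13032). At HD it stood at 8754, 9774, 9923 and 4206 CPM in WT, at 6514, 7959.8, 6831 and 4818 CPM in gpc-A1, and at 5908, 7002, 5211 and 6127 CPM in gpc-A1/gpc-B2. At 22 DAA it stood at 2058, 474, 1777 and 277 CPM in WT, at 908, 703, 1625 and 3630.1 CPM in gpc-A1, and at 1313, 1644, 1624 and 949.9 CPM in gpc-A1/gpc-B2. The HD and 22 DAA libraries did not overlap, and at 22 DAA the libraries of WT and gpc-A1 were spread more widely than those of gpc-A1/gpc-B2.

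The other 6 chlorophyll a-b binding loci had log2 falls between 1.92 and 3.21. The largest of these falls was on 5BL contig 10831572 (positions 1917 to 3005), from a mean of 328 to 34.9 CPM. A pair described as light-harvesting complex II (LHCII, the main antenna of photosystem II) type proteins followed, from 1667 to 277 CPM on 2AS contig 5303958 (positions 5195 to 6504) and from 1007 to 182 CPM on 1BL contig 3813291 (positions 2683 to 4178). The locus of CP24, a minor antenna protein of photosystem II, on 2AL contig 6348052 (positions 2192 to 3485), went from 851 to 203 CPM. The last 2 were on 4AL contig 5754445 (positions 1016 to 3177), from 2698 to 714 CPM, and on 4BS contig 4866139 (positions 1431 to 3237), from 2524 to 657 CPM. In WT at HD, replicate 4 was the lowest of the 4 libraries in each of the 7 chlorophyll a-b binding loci.

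The remaining 6 descriptions were of other chloroplast proteins, of lipid synthesis and of sugar transport. The small chain of Rubisco on 2AS contig 5235651 (positions 1887 to 3465) went from a mean of 1902 to 489 CPM. Thylakoid lumenal 29 kDa protein, which resembles ascorbate peroxidases, went from 287 to 51.9 CPM on 2AL contig 6330236 (positions 2197 to 5332). A chloroplast L-ascorbate peroxidase, an enzyme that removes hydrogen peroxide, went from 269 to 73.8 CPM on 6BL contig 4266248 (positions 1 to 3197). A protein described as TIC, after the translocon that imports proteins across the inner chloroplast envelope, went from 446 to 82.0 CPM on 5BL contig 10866110 (positions 23976 to 25433). Ruptured pollen grain 1, named after a gene of the SWEET sugar transporter family in Arabidopsis, went from 329 to 74.8 CPM on 6AL contig 5752894 (positions 10763 to 12873).

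The largest fall among the described loci was that of phosphoethanolamine methyltransferase, an enzyme of phosphocholine synthesis, on 1AL contig 3957201 (positions 6488 to 11722). At HD it stood at 489, 288, 1437 and 475 CPM in WT, at 1101, 622, 1192 and 647 CPM in gpc-A1, and at 683, 815, 148 and 735 CPM in gpc-A1/gpc-B2. At 12 DAA it stood at 488, 165, 208 and 125 CPM in WT, at 226, 539, 423 and 196 CPM in gpc-A1, and at 504, 67.6, 202 and 235 CPM in gpc-A1/gpc-B2. No library of 22 DAA exceeded 83.6 CPM. Its replicates differed widely at HD and 12 DAA in every genotype, and no genotype stood apart from the others at 12 DAA.

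**Figure D2:**
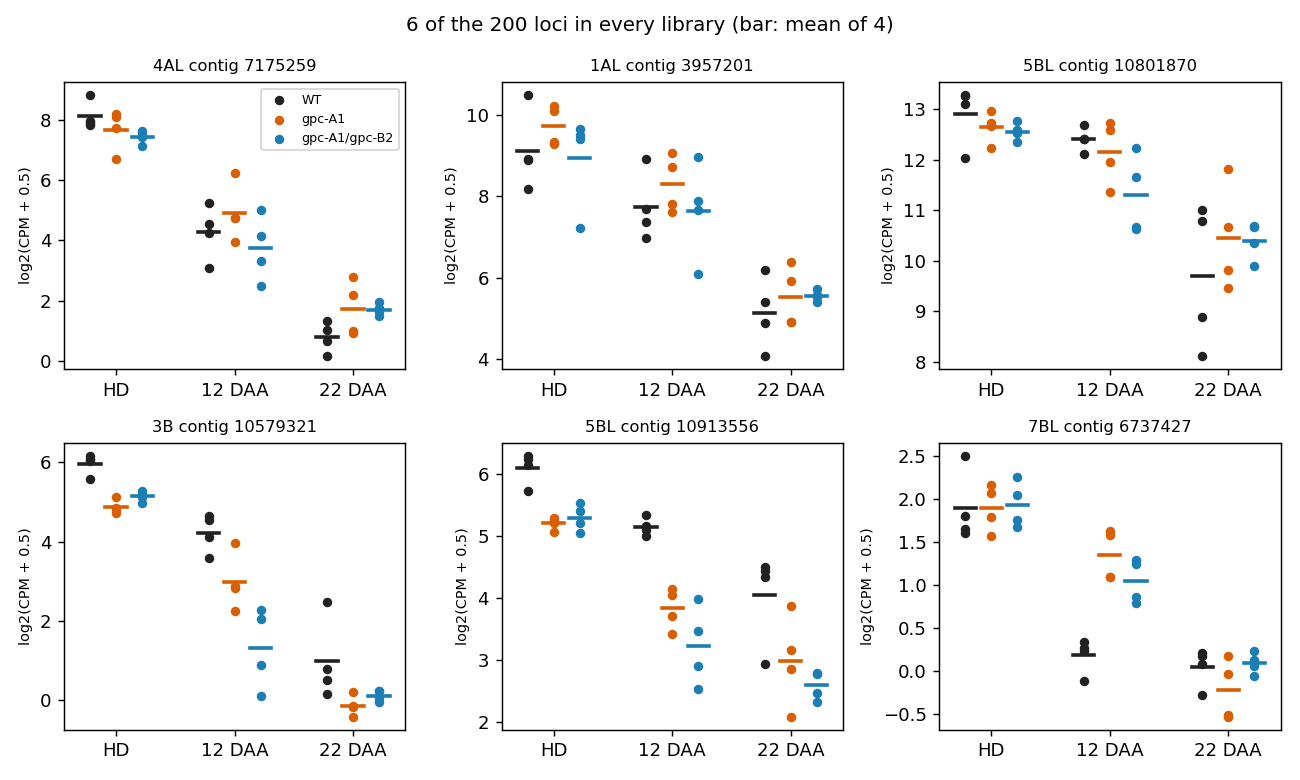
Level of 6 of the 200 loci in each of the 36 libraries, as log2(CPM + 0.5) by sampling time and genotype, with a bar at the mean of 4 libraries. On 5BL contig 10913556 and 3B contig 10579321 the WT libraries at 12 DAA lie above those of gpc-A1/gpc-B2 without overlap, and on 7BL contig 6737427 they lie below those of both mutants.

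The loci that share a list with these members, but were not among the 200, were tested between HD and 22 DAA within each genotype (edgeR, adjusted P of 0.01 or less). The lists were chosen with earlier results of these data known. Of 47 other loci of light harvesting and photosystems, 19 fell in WT, 1 in gpc-A1 and 44 in gpc-A1/gpc-B2, and none rose. Their median log2 fold change was -1.62, -1.28 and -1.40, beside 0.01, 0.03 and 0.01 over all 75375 loci tested. Of all loci tested, 1.95% fell in WT, 0.939% in gpc-A1 and 3.7% in gpc-A1/gpc-B2, and 2.68%, 1.58% and 4.17% rose. The 3 medians were close, while the counts differed widely. Without replicate 1, 2 or 3, 1 locus of all lists together fell in WT against 35 with all libraries and 66 without replicate 4, and in gpc-A1/gpc-B2 the count was 46, 25 and 12 without replicate 1, 2 or 4 against 97. Whether the counts differ between genotypes was not tested.

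The counts in the other chloroplast lists also differed between genotypes. Of 32 Rubisco and Calvin cycle loci, 7 fell in WT, 0 in gpc-A1 and 24 in gpc-A1/gpc-B2, with medians of -1.12, -1.23 and -1.24, and 1 rose in each mutant. Of 10 chlorophyll synthesis loci, 5 fell in WT, 0 in gpc-A1 and 10 in gpc-A1/gpc-B2. Of 17 chloroplast translation loci, 1 fell in WT, 0 in gpc-A1 and 13 in gpc-A1/gpc-B2, and of 19 photorespiration loci, 3, 1 and 5. Over all lists, DESeq2 gave 99 loci that fell in WT and 101 in gpc-A1, against 35 and 2 with edgeR, so that the low counts in gpc-A1 depended on the tool.

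Few loci of the lists for other processes passed the test. Of 31 heat shock and chaperone loci, 0 fell and 2 rose in WT, 0 fell and 0 rose in gpc-A1, and 1 fell and 0 rose in gpc-A1/gpc-B2, with medians of -0.14, -0.14 and -0.23. Of 17 defence protein loci, 0 fell in any genotype and 2, 1 and 2 rose, with medians of 0.18, 0.61 and 0.41. None of the 5 light and clock regulators passed the test in any genotype (medians -0.35, 0.03 and -0.18). No difference between lists was tested. None of the 200 loci belonged to these 3 lists.

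The 200 loci were spread over 27 chromosome arms and 197 contigs. The most lay on 4AL and 5BL, with 15 each. These were 7.5% of the 200 on either arm, beside 4.54% and 6.29% of all loci tested. Of the 200, 46.5% lay on arms of the A genome, beside 47.6% of the loci tested. The median length of a locus was 1578.5 bp, beside 1787 bp. For 30 of the 200, another locus with a mean of at least 2 CPM at HD lay on the same contig, and this nearest neighbour was also one of the 200 in 6 cases. The median log2 fall of the 30 neighbours was 0.01, beside -0.16 over the 35062 loci tested with such a level. Of the neighbours 6 had a log2 fall of at least 1, which are the 6 that belong to the 200, beside 3.28% of those loci. These 6 lie in pairs on 3 contigs, each pair counted from both sides, and were chosen for their fall. The median and this count are therefore no test of the neighbours.

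The libraries of 12 DAA took no part in the choice of the loci. In them, the 200 lay between the other times. The median over the 200 of log2(CPM + 0.5) was 3.68 ± 0.35 (SD, n = 4) in WT at HD, 2.22 ± 0.14 at 12 DAA and 0.83 ± 0.34 at 22 DAA. In gpc-A1 it was 3.55 ± 0.20, 2.46 ± 0.18 and 0.69 ± 0.41. The values of gpc-A1/gpc-B2 were 3.59 ± 0.17, 1.92 ± 0.37 and 1.21 ± 0.29. At 12 DAA the libraries of gpc-A1/gpc-B2 lay at 2.41, 1.66, 1.62 and 1.99, those of WT between 2.08 and 2.41 and those of gpc-A1 between 2.23 and 2.66. Replicate 1 of gpc-A1/gpc-B2 lay within the range of WT, and the other 3 libraries lay below every library of WT and gpc-A1.

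**Figure D3:**
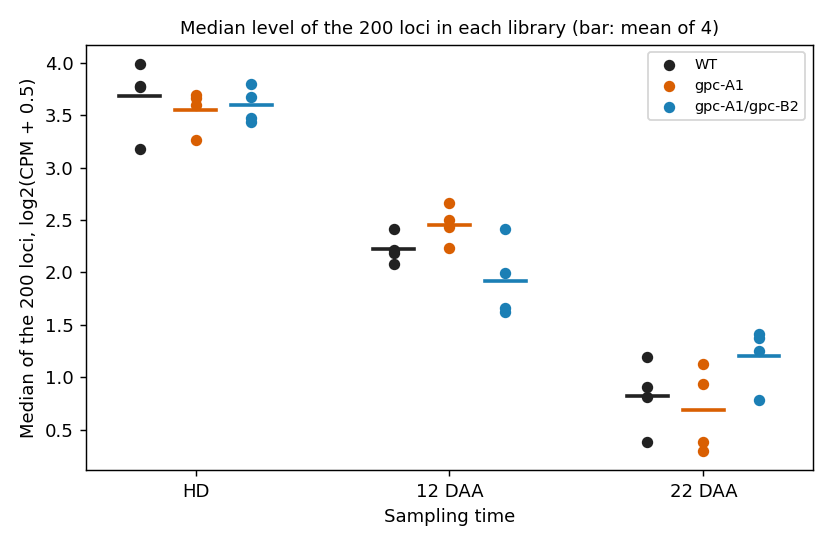
Median of the 200 loci in each of the 36 libraries, as log2(CPM + 0.5), by sampling time and genotype, with a bar at the mean of 4. At 12 DAA, 3 of the 4 libraries of gpc-A1/gpc-B2 lie below all others (1.62, 1.66 and 1.99), and at HD the lowest point is WT replicate 4 (3.18).

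The share of the fall that was reached by 12 DAA was computed for each locus on log2(mean CPM + 0.5). Its median was 50.6% in WT, 41.2% in gpc-A1 and 68.6% in gpc-A1/gpc-B2. The quartiles were 35.6% and 68.7% in WT, 30.4% and 56.2% in gpc-A1, and 57.2% and 79.3% in gpc-A1/gpc-B2. More than 50% of the fall was reached by 12 DAA in 105 loci in WT, in 67 in gpc-A1 and in 175 in gpc-A1/gpc-B2. Without WT replicate 4 at HD the WT median was 53.1%. The share rests on the HD and 22 DAA means that chose the loci, and was not tested. Leaving out 1 replicate number at a time gave medians of 47.6% to 52.3% in WT, 37.9% to 46.1% in gpc-A1 and 61.7% to 80.8% in gpc-A1/gpc-B2.

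**Figure D4:**
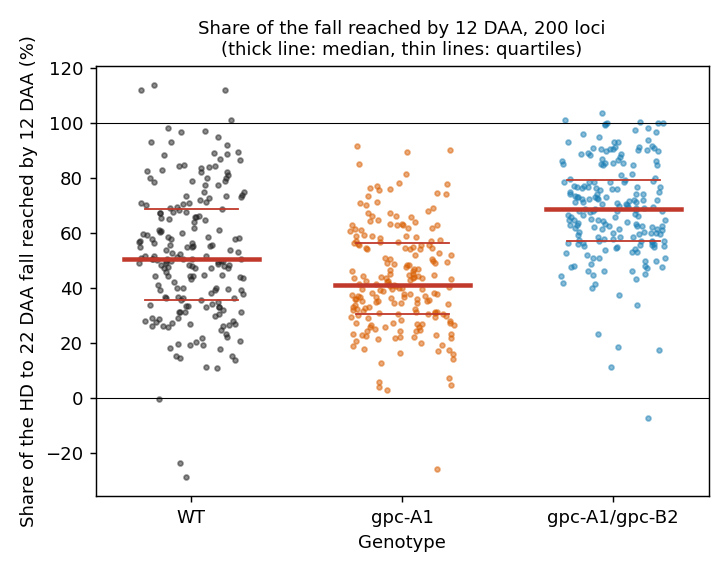
Share of the fall from HD to 22 DAA that was reached by 12 DAA, in percent, for each of the 200 loci (points) in each genotype, with the median (thick line) and quartiles (thin lines). Each share is relative to the fall in the same genotype. The medians are 50.6% in WT, 41.2% in gpc-A1 and 68.6% in gpc-A1/gpc-B2, and single loci range from -28.6% to 114% in WT.

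The 5 loci with the largest share in WT were all near their level of 22 DAA by 12 DAA. They were 2BL contig 7951963 (positions 5209 to 6015) with 114%, 4AL contig 7120745 (positions 165 to 3821) and 6BL contig 4395191 (positions 1446 to 2068) with 112% each, 3B contig 10720504 (positions 4223 to 9126) with 101%, and 5BL contig 10892411 (positions 6294 to 7142) with 98.1%. On 6BL contig 4395191 the share was 50.4% in gpc-A1 and 41.8% in gpc-A1/gpc-B2. Its level at 12 DAA was 1.38, 0.463, 0.484 and 0.857 CPM in WT, 2.47, 2.20, 2.27 and 3.26 CPM in gpc-A1, and 1.21, 9.84, 3.34 and 1.83 CPM in gpc-A1/gpc-B2. WT was below gpc-A1 without overlap there, as in 4.92% of all loci tested, but the difference did not pass the test (edgeR adjusted P = 0.0177). The locus was picked for its large share in WT, which rests on a low WT level at 12 DAA and so favours this order.

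In WT, 3 of the 200 loci had a higher mean at 12 DAA than at HD, and these are the first 3 of the 5 with the smallest share. The 5 were 1BL contig 3281677 (positions 1 to 980) with -28.6%, 1BL contig 3812039 (positions 1790 to 5384) with -23.7%, 2BS contig 5247209 (positions 12718 to 14015) with -0.54%, 5AL contig 2754302 (positions 1 to 2487) with 10.9%, and 7BS contig 2569979 (positions 1 to 556) with 11.3%. On 1BL contig 3281677 the level in WT was 53.4, 62.3, 105 and 37.8 CPM at HD and 105, 73.1, 96.7 and 81.5 CPM at 12 DAA. The double mutant gpc-A1/gpc-B2 stood at 88.3, 83.2, 77.3 and 69.7 CPM at HD and 44.9, 13.7, 27.0 and 35.3 CPM at 12 DAA. The WT libraries of both times overlapped, and those of gpc-A1/gpc-B2 did not. The locus was picked by its WT values, which favours an overlap in WT.

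At 12 DAA, 11 of the 200 loci (5.5%) were differentially expressed (DE) in gpc-A1/gpc-B2 against WT (edgeR, adjusted P of 0.01 or less over 75375 loci), and all 11 were lower in gpc-A1/gpc-B2. Of all loci tested, 1.09% were called lower and 0.963% higher in this comparison, and of the other 521 falling loci 2.3% were called lower. The median log2 fold change of the 200 was -0.58, beside -0.59 in the other falling loci and 0.01 over all loci tested. The change was negative in 149 of the 200 (74.5%), in 478 of the other 521 (91.7%) and in 48.8% of all loci. At an unadjusted P below 0.05, 84 of the 200 (42%) were lower and 14 higher, beside 13.7% and 14.3% of all loci. Of the other 521 falling loci, 354 (67.9%) were lower and 11 higher. At this limit a lower level was thus more common in the other falling loci than in the 200. DESeq2 called 34 lower and 4 higher. For DESeq2 the share of all loci called is not given, here or below, so its counts show only how a result depends on the tool. The count of edgeR calls depended on which libraries were used. Leaving out a replicate number takes 1 library from each group, so the test also has fewer libraries. The count was 24 without replicate 1, 4 without replicate 2, and 0 without replicate 3 or replicate 4. It was 4 without WT replicate 4 of 12 DAA alone, the deepest library.

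Some features of other loci differed in this comparison and some did not. The summed level of the 31 heat shock and chaperone loci at 12 DAA was 10511 to 12397 CPM in WT and 13185 to 16287 CPM in gpc-A1/gpc-B2, without overlap, while 0 of these loci were called in either direction and their median log2 fold change was -0.07. The 17 defence protein loci summed to 3216 to 4954 CPM in WT and 3855 to 6237 CPM in gpc-A1/gpc-B2, which overlapped, with a median of 0.04. Circadian clock associated 1, a transcription factor whose message cycles over the day, stood at 216 to 469 CPM in WT and 39.7 to 231 CPM in gpc-A1/gpc-B2, which overlapped (log2 fold change -1.57, edgeR adjusted P = 0.0563, not called). The other 4 light and clock regulators had log2 fold changes of -0.57 (phototropin-2), -0.14 (cryptochrome 1b), 0.11 (PRR95) and 0.40 (flowering locus t), and none was called. The part of any of these in the difference of the 200 loci was not tested. None of the 47 other light harvesting and photosystem loci was called either, with a median log2 fold change of -0.74.

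The 5 loci with the smallest adjusted P in this comparison had no description. The smallest was that of 5BL contig 10913556 (positions 613 to 1927), at 35.3, 39.6, 31.3 and 33.5 CPM in WT, 10.1, 17.2, 15.9 and 12.6 CPM in gpc-A1, and 15.3, 5.26, 6.98 and 10.6 CPM in gpc-A1/gpc-B2. All 8 mutant libraries were below all 4 of WT. The log2 fold change was -2.03 ± 0.29 (SE) in gpc-A1/gpc-B2 (edgeR adjusted P = 0.00214) and -1.38 ± 0.18 in gpc-A1 (adjusted P = 0.00193). The locus was already lower in the mutants at HD, where WT stood at 77.4, 52.4, 70.3 and 75.2 CPM and the mutants between 32.5 and 45.6 CPM. At HD the log2 fold change was -0.97 ± 0.15 in gpc-A1 (edgeR adjusted P = 0.223) and -0.88 ± 0.18 in gpc-A1/gpc-B2 (edgeR adjusted P = 0.64), which did not pass.

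On 3B contig 10579321, the locus with the sixth largest fall, the level at 12 DAA was 24.5, 11.5, 22.8 and 16.9 CPM in WT, 6.59, 6.86, 15.2 and 4.29 CPM in gpc-A1, and 3.63, 4.38, 0.582 and 1.34 CPM in gpc-A1/gpc-B2. WT and gpc-A1/gpc-B2 did not overlap, with a log2 fold change of -3.05 ± 0.45 (edgeR adjusted P = 0.00222). Here too WT was higher at HD, at 64.9, 67.0, 70.9 and 47.6 CPM, against 26.0 to 38.2 CPM in the 8 mutant libraries. The interaction of genotype and time, which asks whether the change from HD to 12 DAA differs, was -2.12 ± 0.52 on the log2 scale and did not pass (edgeR adjusted P = 0.127).

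The other 3 of these 5 loci showed smaller differences. On 5BL contig 10873515 (positions 18330 to 20524) the level at 12 DAA was 30.6, 27.4, 26.3 and 22.5 CPM in WT and 14, 6.54, 7.27 and 11 CPM in gpc-A1/gpc-B2, a log2 fold change of -1.62 ± 0.25 (edgeR adjusted P = 0.00309). On 7AL contig 4518109 (positions 10951 to 12746) the means were 5.20 ± 0.58 and 2.46 ± 0.54 CPM (SD, n = 4; edgeR adjusted P = 0.00348), and on 7AS contig 4254305 (positions 6343 to 7191) 4.84 ± 0.62 and 2.27 ± 0.48 CPM (edgeR adjusted P = 0.004). In all 3 the WT and gpc-A1/gpc-B2 libraries did not overlap. Among the other 6 called loci were 1BL contig 3281677 (log2 fold change -1.71 ± 0.31, edgeR adjusted P = 0.00762) and 2BS contig 5247209 (-2.25 ± 0.39, edgeR adjusted P = 0.00631), named above for their small share of the fall in WT. That share rests on a high WT level at 12 DAA, so the naming and the call use the same WT values.

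None of the 13 described loci was called at 12 DAA. The closest was ruptured pollen grain 1, at a mean of 240.3 ± 47.8 CPM in WT and 127 ± 29.8 CPM in gpc-A1/gpc-B2 (log2 fold change -1.09 ± 0.21, edgeR adjusted P = 0.0108). The chloroplast L-ascorbate peroxidase followed, at 185 ± 25.6 and 107 ± 27.8 CPM (-0.95 ± 0.22, edgeR adjusted P = 0.0224), and then TIC (-1.09 ± 0.27, edgeR adjusted P = 0.0275). The 7 chlorophyll a-b binding loci had log2 fold changes between -0.63 and -1.12, with edgeR adjusted P between 0.0732 and 0.243. On 5BL contig 10801870 the level at 12 DAA was 5427, 5432, 6649 and 4436 CPM in WT and 4811, 1620.3, 1579 and 3220.4 CPM in gpc-A1/gpc-B2. Replicate 1 of gpc-A1/gpc-B2 lay within the range of WT, and the other 3 lay below it.

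Between WT and gpc-A1 at 12 DAA, 2 of the 200 loci were DE, beside 0.191% of all loci called higher and 0.317% lower. The lower one was 5BL contig 10913556, above. The higher one was 7BL contig 6737427 (positions 1 to 2293), at 0.763, 0.421, 0.700 and 0.674 CPM in WT, 2.60, 1.64, 2.49 and 1.63 CPM in gpc-A1, and 1.94, 1.87, 1.31 and 1.22 CPM in gpc-A1/gpc-B2. The WT libraries were below all 8 of the mutants. The log2 fold change in gpc-A1 was 1.64 ± 0.27 (edgeR adjusted P = 0.00864), and in gpc-A1/gpc-B2 it was 1.16 ± 0.27 (edgeR adjusted P = 0.0231), which did not pass. At HD the locus stood between 2.46 and 5.15 CPM in all genotypes, and its share of the fall by 12 DAA was 93.1% in WT, 25.7% in gpc-A1 and 47.9% in gpc-A1/gpc-B2.

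The median log2 fold change of the 200 between WT and gpc-A1 was 0.11, beside -0.13 in the other falling loci and 0.01 over all loci tested. At an unadjusted P below 0.05, 42 of the 200 were higher in gpc-A1 and 13 lower, beside 7.7% and 6.68% of all loci. With the replicate number as a block, which pairs libraries that were sequenced together, 7 of the 200 were called higher and 1 lower in place of 1 and 1. The share of all loci called with the block is not given, so this shows only how the count depends on the fit. DESeq2 called 7 higher and 2 lower. The count was 0 without replicate 3 or replicate 4. WT libraries are shared by this comparison and that with gpc-A1/gpc-B2.

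No locus of the 200 was called by edgeR in the double mutant gpc-A1/gpc-B2 against gpc-A1 at 12 DAA, beside 0.127% of all loci called lower and 0.0862% higher. At an unadjusted P below 0.05, 78 of the 200 (39%) were lower in gpc-A1/gpc-B2 and 0 higher, beside 5.4% and 5% of all loci. Of the other 521 falling loci, 251 (48.2%) were lower and 0 higher, so this was not particular to the 200. DESeq2 called 2 of the 200, both lower. The median log2 fold change was -0.71, beside -0.46 in the other falling loci. The change was negative in 183 of the 200 (91.5%), in 498 of the other 521 (95.6%) and in 49.7% of all loci.

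**Figure D5:**
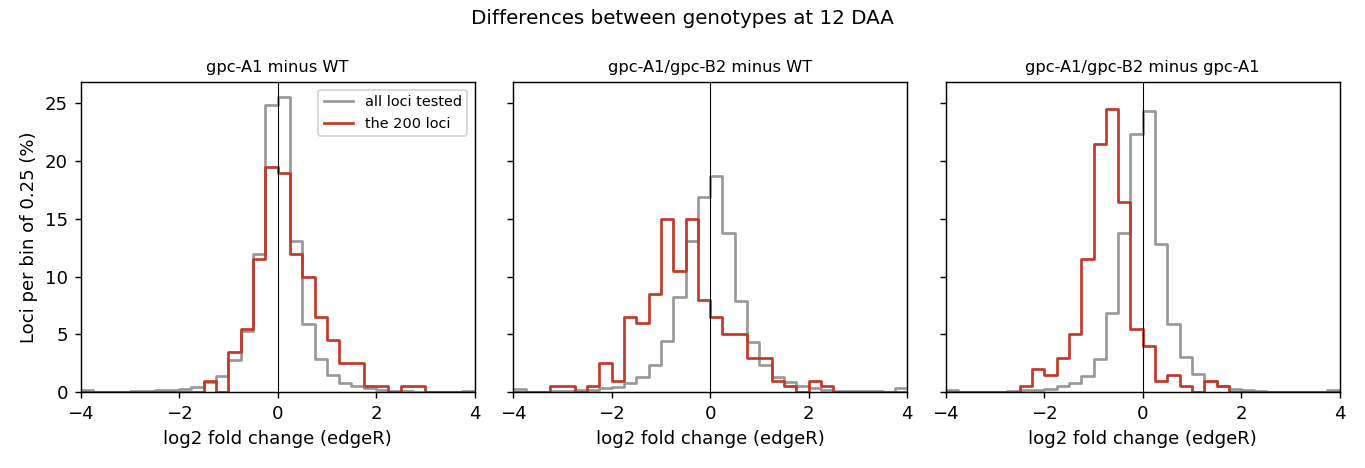
Distribution of the log2 fold change between genotypes at 12 DAA, for the 200 loci (red) and all 75375 loci tested (grey), in percent of loci per bin. Values beyond the axis are in the outermost bins. The median of the 200 is 0.11 for gpc-A1 against WT, -0.58 for gpc-A1/gpc-B2 against WT and -0.71 for gpc-A1/gpc-B2 against gpc-A1.

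By their means at 12 DAA, gpc-A1/gpc-B2 was the lowest genotype in 137 of the 200 loci, WT in 56 and gpc-A1 in 7. The highest was gpc-A1 in 54% of them, WT in 36.5% and gpc-A1/gpc-B2 in 9.5%. In the other falling loci, gpc-A1/gpc-B2 was the lowest in 438 of 521, WT in 59 and gpc-A1 in 24. All 4 libraries of gpc-A1/gpc-B2 were below the 8 others in 8 of the 200 loci (1.14% of all loci tested), those of WT in 7 (2.94%), and those of gpc-A1 in 0 (0.236%). Of the other 521 falling loci, this held in 96 for gpc-A1/gpc-B2, in 5 for WT and in 0 for gpc-A1. For gpc-A1/gpc-B2 it was thus more common in the other falling loci than in the 200. Between single genotypes, the libraries of gpc-A1/gpc-B2 were all below those of WT in 37 loci (5.78% of all loci tested) and all above in 8 (14.3%). They were all below those of gpc-A1 in 16 (2.16%) and above in 0 (4.04%). The libraries of gpc-A1 were all above those of WT in 19 (4.92%) and below in 5 (3.02%). All 4 libraries of WT were above the 8 others in 4 of the 200 loci (1.56% of all loci tested), those of gpc-A1 in 4 (0.24%) and those of gpc-A1/gpc-B2 in 0 (2.56%). Both counts of WT against the 8 others were near the share of all loci, so they are not read as a trait of the 200. The loci called between WT and gpc-A1 went either way. On 7BL contig 6737427, WT was the lowest at 12 DAA, and on 5BL contig 10913556 it was the highest.

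At HD, 0 of the 200 loci were called between any 2 genotypes by edgeR, beside 0 of all loci between WT and gpc-A1, 0.00133% between WT and gpc-A1/gpc-B2 and 0.00133% between the mutants, all of these higher in gpc-A1/gpc-B2. All HD libraries took part in the choice of the loci, so these values are a description. At an unadjusted P below 0.05, 19 of the 200 were lower and 5 higher in gpc-A1 than in WT, beside 3.97% and 3.38% of all loci. In gpc-A1/gpc-B2, 17 were lower and 3 higher than in WT (2.28% and 2.66% of all loci), and 11 lower and 16 higher than in gpc-A1 (2.1% and 3.53%). DESeq2 called 6 loci in the 3 comparisons together. The median log2 fold change was -0.22 in gpc-A1 and -0.16 in gpc-A1/gpc-B2 against WT, beside -0.02 and 0.01 over all loci.

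At 22 DAA, 0 of the 200 loci were called between any 2 genotypes by edgeR, beside 0.142% of all loci called lower and 0.0438% higher in gpc-A1/gpc-B2 than in WT. At an unadjusted P below 0.05, 44 of the 200 were higher and 20 lower in gpc-A1/gpc-B2 than in WT, beside 7.54% and 7.56% of all loci. In gpc-A1, 10 were higher and 11 lower than in WT (2.77% and 2.57%), where 0 of all loci were called. Against gpc-A1, 11 were higher and 6 lower in gpc-A1/gpc-B2 (1.98% and 3.51%), where 0.00398% and 0.00796% of all loci were called. DESeq2 called 10 loci in the 3 comparisons together. A fit of all 9 groups with edgeR called 7, and the share of all loci it called is not given. The median log2 fold change of gpc-A1/gpc-B2 against WT was 0.36, and -0.01 over all loci. All libraries of 22 DAA took part in the choice of the loci, so these values are a description. The nearest to the threshold was 6AL contig 5722309 (starting at position 15), with a log2 fold change of 4.50 ± 0.69 (edgeR adjusted P = 0.0164), followed by 4BS contig 4905501 (positions 10262 to 13684), with 2.18 ± 0.34 (edgeR adjusted P = 0.0181).

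The change from HD to 12 DAA was compared between genotypes with the interaction term of edgeR. None of the 200 loci passed it for gpc-A1 against WT, beside 0.0106% of all loci with a positive and 0.0133% with a negative term, nor for gpc-A1/gpc-B2 against WT, beside 0.069% and 0.0915%. At an unadjusted P below 0.05, the term was positive in 30 and negative in 3 of the 200 for gpc-A1, beside 3.4% and 2.6% of all loci. For gpc-A1/gpc-B2 it was positive in 9 and negative in 30 (15%), beside 5.14% and 4.77%. In the other 521 falling loci the term for gpc-A1/gpc-B2 was positive in 6 and negative in 149 (28.6%). DESeq2 called 2 loci for gpc-A1 and 0 for gpc-A1/gpc-B2. The medians were 0.36 for gpc-A1 and -0.44 for gpc-A1/gpc-B2, beside 0.04 and 0.01 over all loci. The term uses the HD libraries that chose the loci, in which the median of the 200 was already -0.22 in gpc-A1 and -0.16 in gpc-A1/gpc-B2 against WT, so these values are a description.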

How the data were processed

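The authors aligned single reads of 50 bp by GSNAP against survey sequence contigs of the hexaploid variety Chinese Spring, restricted to its A and B genomes, and used HTSeq to count reads with 1 alignment. The deposited values are raw counts for 80168 loci in 36 libraries of 13754124 to 48981831 counts. Reads that match both genome copies are lost by unique mapping, and near-identical copies can share reads. All pairs of replicates differed beyond sampling noise (chi-square per degree of freedom of 4.05 or more).

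A locus was tested where 2 or more replicates of some group each had over 3 reads (75375 loci), with the quasi-likelihood test of edgeR 4.0.16 (R 4.3.3, TMM scaling, 8 libraries per comparison, Benjamini-Hochberg adjustment, limit 0.01). The alternatives included DESeq2 1.42.0, and figures were made with matplotlib 3.10.9 (Python 3.11.15). The fits were tested on simulated data. The SE of a log2 fold change was derived from the test, as its absolute value divided by the square root of the F statistic. CPM were computed from the raw counts. Descriptions came from the readable rows of the study's annotation (782 loci, 763 described). The members and lists were chosen with earlier results of these data known.

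The text names the 10 loci with the largest fall, the 5 with the highest HD mean, all described loci, up to 5 loci called in each direction at 12 DAA, those at the limit of 200, and the 5 with the largest and smallest share of the WT fall. Samples of a replicate number were sequenced together according to the study's methods, which pairs them. Deviations from group means of same-numbered samples correlated with a mean r of -0.14 to 0.2 across comparisons.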

Additional observations from a re-analysis of the deposited data

Results flagged for a closer look

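The named loci gave 360 groups of 4 libraries, and in 27 of them (7.5%) 1 library lay far from the other 3 for the spread of the group, where chance gives about 5%. In 3 of the 27 the other libraries were all at 0 reads, where any read gives such a gap and the chance value does not apply. WT replicate 4 at HD was such a library in 5 groups. It was low on 2AS contig 5303958 (752 CPM), 5BL contig 10831572 (90.0 CPM), 1BL contig 3813291 (488 CPM) and 2AL contig 6348052 (469.8 CPM), all chlorophyll a-b binding loci, and high on 7BL contig 6737427 (5.15 CPM). The same library held the lowest summed level of the 200 loci at HD.

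Replicate 3 of gpc-A1/gpc-B2 at HD was high on 6BL contig 4266248 (355 CPM), 7AL contig 4518109 (9.59 CPM), 5BL contig 10892411 (47.7 CPM) and 4AL contig 7120745 (24.2 CPM). Replicate 1 of WT at 22 DAA stood at 0.140 CPM on 7AS contig 4124392 and 5.12 CPM on 3B contig 10579321, both high, and at 7.07 CPM on 5BL contig 10913556, which was low. Replicate 1 of gpc-A1/gpc-B2 at 12 DAA was high on 5AS contig 1535390 (2.42 CPM) and 5BS contig 2295187 (0.848 CPM), and replicate 2 was high on 2AL contig 6389817 (15.6 CPM) and 2BL contig 7951963 (16.8 CPM).

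The other libraries far from their groups at HD were WT replicate 3 on 4AL contig 7175259 (445 CPM), gpc-A1 replicate 4 on 2AS contig 5303958 (1245 CPM) and replicate 2 of gpc-A1/gpc-B2 on the same locus (1949.8 CPM). At 12 DAA they were WT replicate 1 on 5BS contig 2295187 (2.96 CPM) and gpc-A1 replicate 1 on 4AL contig 7120745 (4.75 CPM). At 22 DAA in gpc-A1 they were replicate 4 on 5AS contig 1535390 (0.340 CPM), replicate 3 on 5BS contig 2295187 (0.0635 CPM) and replicate 2 on 3B contig 10720504 (2.08 CPM). The rest at 22 DAA were WT replicate 2 on 7AS contig 4254305 (1.39 CPM), and in gpc-A1/gpc-B2 replicate 4 on 5AS contig 1551992 (0.0517 CPM) and replicate 2 on 2BL contig 7951963 (1.74 CPM).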

How the results depend on the processing

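With DESeq2 the loci called of the 200 at 12 DAA were 9 for WT against gpc-A1, 38 for WT against gpc-A1/gpc-B2, and 2 for the double mutant against gpc-A1. DESeq2 called 6 at HD, 10 at 22 DAA and 2 for the interaction in gpc-A1. In a fit of all 9 groups the calls were 1 for WT against gpc-A1, 7 for WT against gpc-A1/gpc-B2 and 7 at 22 DAA. Without WT replicate 4 of 12 DAA, chosen after seeing the data, they were 1 and 4. With the replicate number as a block, 8 were called for WT against gpc-A1, and 0 listed loci fell and 0 rose in gpc-A1, while 7 rose in gpc-A1/gpc-B2. For WT against gpc-A1/gpc-B2 the block gave 13 calls, 7 of them among the 11. The block moved no other count by more than 1.5 times. Leaving out 1 replicate number gave 0 to 2 calls for WT against gpc-A1, 0 to 24 for WT against gpc-A1/gpc-B2, 0 to 1 for the double mutant against gpc-A1 and 0 to 1 at 22 DAA. The share of all loci called under these alternatives is not given, so the counts show only how the results depend on the processing.

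The median share of the fall by 12 DAA was 56.2% in WT and 45.3% in gpc-A1 with a pseudocount of 2 CPM, and 53.1% in WT without WT replicate 4 at HD, an alternative chosen after seeing the data. Leaving out 1 replicate number gave 47.6% to 52.3% (WT), 37.9% to 46.1% (gpc-A1) and 61.7% to 80.8% (gpc-A1/gpc-B2). Of the 200 loci, 154 to 197 were shared with the sets made with TMM scaling, another pseudocount or another minimum level, and 167 to 190 with those made without 1 replicate number.

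DESeq2 gave 99 listed loci that fell in WT, 101 that fell and 9 that rose in gpc-A1, and 10 that rose in gpc-A1/gpc-B2. Without 1 replicate number, 1 to 66 fell and 0 to 7 rose in WT, 0 to 11 fell and 0 to 1 rose in gpc-A1, and 12 to 95 fell and 2 to 6 rose in gpc-A1/gpc-B2. The alternatives were followed for 7 pairs of a called locus and its comparison, those with the smallest adjusted P at 12 DAA. For these 7, 26 alternatives missed the threshold, 44 did not and 0 reversed the sign. All 7 missed it without replicate 3, and all 7 without replicate 4. The other called loci are not in these counts. The cause of these changes was not tested. Loci with few reads at 22 DAA are limited by depth.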
